A study of Mus musculus with 30 samples.

Results

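The vitamin D receptor (Vdr), its dimer partners retinoid X receptor alpha and beta (Rxra and Rxrb) and the hydroxylases that make and break its hormone (Cyp27b1 and Cyp24a1) were followed as 5 named genes, each matched by its symbol among the 25520 symbols of the untreated files and the 25410 symbols of the hormone files. All 5 were listed in all 30 libraries. The libraries come from IDG-SW3, an immortalized mouse bone cell line that mineralizes in culture and takes on osteocyte features over several weeks. The 18 untreated libraries hold 6 groups of 3, harvested on day 3, day 7, day 14, day 21, day 28 or day 35 of osteogenic culture, and received no hormone or vehicle. The hormone experiment holds 12 libraries in 4 groups of 3: 1,25D3 at day 3, ethanol vehicle at day 3, 1,25D3 at day 35 and ethanol vehicle at day 35. There, 1,25-dihydroxyvitamin D3 (1,25D3, the active hormone) was given at 100 nM for the last 24 hours. All groups share 1 cell line that was expanded with interferon gamma before its withdrawal, so no animal varies between libraries. The labels do not say whether replicates were separate cultures, and p-values measure the spread between libraries only.

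Vitamin D reaches cells mostly as an inactive precursor. Cyp27b1 adds the hydroxyl group that makes it the active hormone, mainly in kidney tubules, and Cyp24a1 adds another that starts its breakdown. The active hormone binds Vdr, which pairs with a retinoid X receptor and attaches to DNA at repeated hexamers. In bone, the bound pair acts on genes of mineral handling and of osteoclast support, and Cyp24a1 is the classic target that ends the signal. Rxra and Rxrb also serve as partners of other nuclear receptors, such as the retinoic acid and thyroid hormone receptors.

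Upstream sequence was matched for 4 of the 5 genes in RefSeq windows of GRCm38.p6, and those of the 3 receptor genes are shown because their levels differed between groups below. They run 5′ to 3′ on the strand of the gene, end at or up to 15 bases before the annotated start and leave out annotated exons of any gene. Capitals mark hexamers that the receptor pair binds, searched on both strands as AGGTCA, as GGGTCA, as GGTTCA or as AGTTCA.
Vdr, chr15:97908311-97908546, minus strand: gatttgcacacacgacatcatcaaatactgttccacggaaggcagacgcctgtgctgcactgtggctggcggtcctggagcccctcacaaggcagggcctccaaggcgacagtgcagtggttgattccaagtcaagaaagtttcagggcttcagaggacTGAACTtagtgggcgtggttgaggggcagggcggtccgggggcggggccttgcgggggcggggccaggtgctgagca
Rxra, chr2:27676951-27677200, plus strand: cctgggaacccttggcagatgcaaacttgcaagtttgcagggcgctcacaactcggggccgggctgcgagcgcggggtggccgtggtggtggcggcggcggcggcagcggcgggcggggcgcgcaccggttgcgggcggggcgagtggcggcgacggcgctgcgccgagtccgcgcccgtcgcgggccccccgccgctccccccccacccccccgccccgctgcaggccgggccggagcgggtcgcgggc
Rxrb, chr17:34031691-34031811, plus strand: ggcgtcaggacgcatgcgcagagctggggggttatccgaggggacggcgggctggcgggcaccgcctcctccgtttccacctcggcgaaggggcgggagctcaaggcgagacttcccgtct
The Vdr window held 1 such hexamer, on the opposite strand. At the same place and length, 37.1% of 32851 RefSeq promoters held at least 1. None was found in the Rxra and Rxrb windows, whose lengths of 250 and 121 bases gave shares of 38.6% and 20.2%. The Cyp27b1 window, chr10:127047996-127048245, held none either. The vitamin D response element, searched as any 2 of these hexamers in direct repeat with 3 bases between, was in none of the 4 windows and in 0.0396% of all 250-base windows. Absence here says only that these letters are not in these windows. The Rxra window was 81.2% G and C, against a median of 52.4% over all windows of that length.

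The untreated libraries were deposited as RPKM (read density scaled to transcript length and library depth) and the hormone libraries as counts, which summed to between 22062866 and 54325515 reads a library. The 2 experiments used different library kits and units, so no value was tested across them. Ribosomal RNA rows took 71.6% to 88.4% of the summed RPKM in the untreated libraries. As a measure of background, the 1116 genes of the olfactory receptor family, silent outside the nose in most tissues, held 14.5 to 20.1 reads per kilobase in the 1,25D3 libraries of day 3 and 1.75 to 2.40 in the vehicle libraries of day 3. At day 35 the background was 13.3 in 1,25D3 replicate 2, 1.69 and 2.38 in the other 1,25D3 libraries and 0.942 to 4.17 in the vehicle libraries. The osteoblast markers (6 of 6 listed) summed to 466 to 801 RPKM in untreated day 35 libraries, against 123 to 160 RPKM at day 3. The 5 osteocyte markers (Dmp1, Phex, Sost, Mepe and Pdpn) summed to 0.279 to 1.38 RPKM in untreated day 35 libraries, against 0.601 to 1.07 RPKM at day 3. Within that sum Dmp1, a matrix protein gene, stood at 0.152 to 0.556 RPKM at day 35, against 0.056 to 0.117 RPKM at day 3, and Sost, the late marker sclerostin, at 0.072 to 0.522 RPKM at day 35, against 0 at day 3. Pdpn, an early marker, was listed at 0 at day 35, against 0.425 to 0.873 RPKM at day 3. Phex and Mepe overlapped between these days. Phex stood at 0.02 to 0.211 RPKM at day 35, against 0 to 0.094 RPKM at day 3. Mepe stood at 0 to 0.238 RPKM at day 35, against 0 to 0.103 RPKM at day 3. In CPM (counts scaled to library depth with TMM factors) the same 5 summed to 446 to 551 in 1,25D3 libraries of day 35, 58.1 to 61.8 in those of day 3, 427 to 562 in vehicle libraries of day 35 and 107 to 133 in those of day 3. In vehicle libraries Dmp1, Phex, Sost and Mepe were higher at day 35 without overlap, while Pdpn overlapped between the days (49.7 to 79.1 CPM at day 35, against 65.7 to 89.8 CPM at day 3). In 1,25D3 libraries Dmp1, Phex and Pdpn were higher at day 35 without overlap, while Sost and Mepe overlapped between the days. There Sost stood at 0 to 0.424 CPM at day 35, against 0.0274 to 0.564 CPM at day 3. Mepe stood at 0.161 to 0.784 CPM at day 35, against 0.198 to 0.357 CPM at day 3. The osteoblast markers summed to 10400 to 13100 CPM in 1,25D3 libraries of day 35 and 20200 to 25900 CPM in vehicle libraries of day 35. There Alpl, Sp7, Ibsp, Col1a1 and Runx2 were lower with 1,25D3 without overlap, while Bglap overlapped. At day 3 the sums were 970 to 1880 CPM in 1,25D3 libraries and 1250 to 3570 CPM in vehicle libraries. Of 8 macrophage and osteoclast markers 7 were listed, and they summed to 507 to 627 CPM in 1,25D3 libraries of day 35 and 565 to 721 CPM in vehicle libraries of day 35, nearly all of it Ctsk, a protease gene. At day 3 they summed to 91.4 to 119 CPM in 1,25D3 libraries and 148 to 193 CPM in vehicle libraries. The blood cell markers Ptprc and Itgam were at 0 in all 12 libraries. In 1,25D3 libraries of day 3 Csf1r stood at 0.736 to 1.43 CPM, Emr1 at 0.34 to 0.988 CPM and Cd68 at 1.02 to 1.73 CPM. Vehicle libraries of day 3 had 0 to 0.317, 0 and 0.463 to 1.49 CPM. A 0 in the hormone libraries does not show absence. Fgfr1, an FGF receptor gene, was also at 0 in all 12 and averaged 9.07 RPKM in untreated day 3 libraries. The part of these markers in the results below was not tested. The keratinocyte and kidney tubule markers, from tissues where Cyp27b1 is abundant, summed to 1.98 to 3.03 CPM in 1,25D3 libraries of day 3 and 0.293 to 0.573 CPM in vehicle libraries of day 3. In bulk RNA, fewer cells of a type and less RNA per cell cannot be told apart.

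In untreated cells the receptor and both hydroxylases were barely read. Vdr ranged from 0.042 to 0.489 RPKM over the 18 libraries, with a median of 0.133 RPKM. Its steps correspond to 1 to 13 reads a library, if the smallest step is 1 read. Its day means were 0.136 ± 0.0862 RPKM at day 3, 0.159 ± 0.0473 at day 7, 0.0897 ± 0.0716 at day 14, 0.231 ± 0.142 at day 21, 0.195 ± 0.255 at day 28 and 0.239 ± 0.182 at day 35 (SD, n = 3 each). The SD on day 28 exceeds the mean, because replicate 1 stood at 0.489 RPKM beside 0.05 and 0.045 RPKM, and the ranges of all 6 days overlapped. Cyp24a1, which breaks the hormone down, was listed at 0 in 18 of 18 libraries. Cyp27b1, which makes the hormone, ranged from 0 to 0.335 RPKM, was listed at 0 in 4 libraries and had at most 9 reads, if its smallest step is 1 read. Its highest day mean was 0.174 ± 0.13 RPKM at day 14 and its lowest 0.0413 ± 0.0454 RPKM at day 35 (SD, n = 3 each).

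The retinoid X receptors had higher medians than Vdr over the 18 untreated libraries, 0.428 RPKM for Rxra and 1.31 RPKM for Rxrb. Their steps correspond to 2 to 22 reads a library for Rxra and 20 to 64 for Rxrb, if the smallest step is 1 read. The step was fitted for each gene apart, so these reads cannot be compared between genes. Rxra averaged 0.53 ± 0.129 RPKM at day 3, 0.439 ± 0.119 at day 7, 0.612 ± 0.159 at day 14, 0.377 ± 0.0895 at day 21, 0.568 ± 0.259 at day 28 and 0.235 ± 0.148 at day 35 (SD, n = 3 each). Its 3 libraries of day 35 (0.304, 0.337 and 0.065 RPKM) lay under the 3 of day 3 (0.409, 0.665 and 0.516 RPKM). Rxra never reached 1 RPKM in any of the 18 libraries and so missed the level filter (1 RPKM in at least 3 libraries), as did Vdr and the hydroxylases. Fitted without the filter, its log2(RPKM + 0.5) was lower by 0.50 at day 35 than at day 3 (-0.50 ± 0.20 SE), which missed the threshold (limma, adjusted p = 0.0632). None of the 9 comparisons of days passed for Vdr, Cyp27b1 or Rxra in that fit, where 2 of the 9 for Rxra and 0 for the others had an unadjusted p under 0.05.

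Rxrb was the only 1 of the 5 to pass the filter in untreated cells, and its level showed no change that passed the test. Day 3 libraries measured 0.735, 1.17 and 1.30 RPKM, day 7 libraries 0.916, 1.52 and 1.41 RPKM, and day 14 libraries 0.716, 1.65 and 2.13 RPKM. Day 21 libraries measured 0.853, 2.19 and 2.11 RPKM, day 28 libraries 0.611, 1.74 and 1.45 RPKM, and day 35 libraries 1.31, 1.18 and 0.734 RPKM. Replicate 1 of each day came from the first sequencing run, by the run numbers in the file names, and was the lowest on 5 of 6 days. Among the 9933 genes tested, 9.65% had their lowest value in that run on 5 or 6 days. Ordered by the day means of log2 values, day 21 was highest, followed by days 14, 7, 28, 35 and 3. No neighbours in that order differed beyond their spread, with differences of 0.00 to 0.16 and SE of 0.32 on the log2 scale. Between days 35 and 3 the log2 change was 0.00 ± 0.32 (SE, limma, adjusted p = 0.995), while 57.1% of the 9933 genes passed in that comparison and the median gene was at -0.69. Median centring, which takes that shift out, gave Rxrb 0.83 (limma, adjusted p = 0.0469), and 5073 of the 9933 genes passed there. Rxrb exceeded Rxra per length in 17 of 18 untreated libraries, with a ratio of Rxra to Rxrb of 0.0886 to 1.22.

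**Figure D1:**
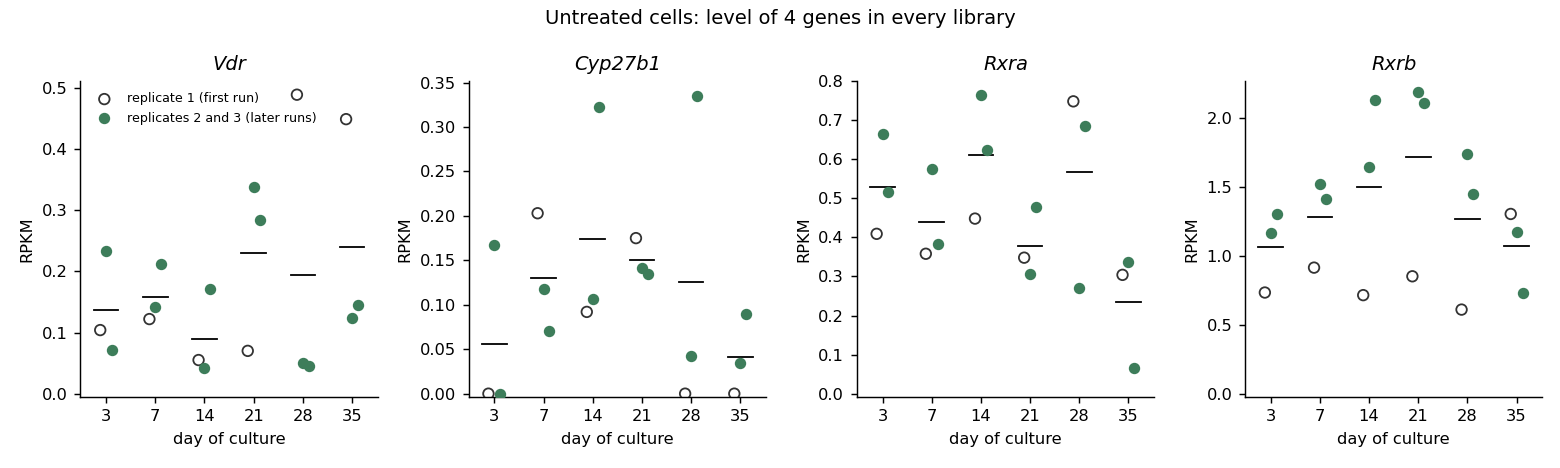
RPKM of Vdr, Cyp27b1, Rxra and Rxrb (vertical axes) by day of culture in untreated cells, with 1 point per library, a line at the mean of 3, and open points for replicate 1 from the first sequencing run. Rxrb stands lowest in replicate 1 on all days but day 35, and Vdr stays under 0.5 RPKM throughout.

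In the hormone experiment, Vdr was higher at day 35 than at day 3 with either treatment, and higher with 1,25D3 than with vehicle at day 35. At day 35 it measured 19.9, 25.6 and 31.4 CPM in 1,25D3 cells, against 10.5, 8.12 and 6.05 CPM in vehicle cells. At day 3 it measured 7.15, 3.74 and 4.80 CPM in 1,25D3 cells, against 1.41, 4.28 and 2.59 CPM in vehicle cells. The groups do not overlap at day 35 and overlap at day 3, where vehicle replicate 2 lies above 1,25D3 replicate 2. The log2 change with hormone was 1.64 ± 0.35 at day 35 (SE, edgeR quasi-likelihood test, adjusted p = 0.0124), and at day 3 it was 0.91 ± 0.36, which missed the threshold (adjusted p = 0.0774). With the time of culture, Vdr rose by 2.29 ± 0.36 in 1,25D3 cells (adjusted p = 0.000223) and by 1.57 ± 0.36 in vehicle cells (adjusted p = 0.00371). The difference between the day 35 and day 3 responses, 0.72 ± 0.50, did not pass (adjusted p = 0.396).

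The day 35 response of Vdr lost its call without replicate 3 of 1,25D3 (1.51, adjusted p = 0.053) or of vehicle (1.49, adjusted p = 0.062). At day 3 the response passed without vehicle replicate 2 (1.37, adjusted p = 0.0224), while subtraction of the background reads gave 0.54 (adjusted p = 0.435). The reads behind it at day 3 were 203, 132 and 175 in 1,25D3 libraries, where 68.1, 63.4 and 87.8 background reads were expected over the transcript, against 58, 190 and 113 in vehicle libraries, where 10.5, 7.6 and 7.9 were expected. The background therefore moved with the hormone at day 3, and its part in that change was not separated beyond this subtraction. At day 35, 984, 845 and 1480 reads in 1,25D3 libraries stood beside 7.4, 58.0 and 10.4 expected background reads.

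**Figure D2:**
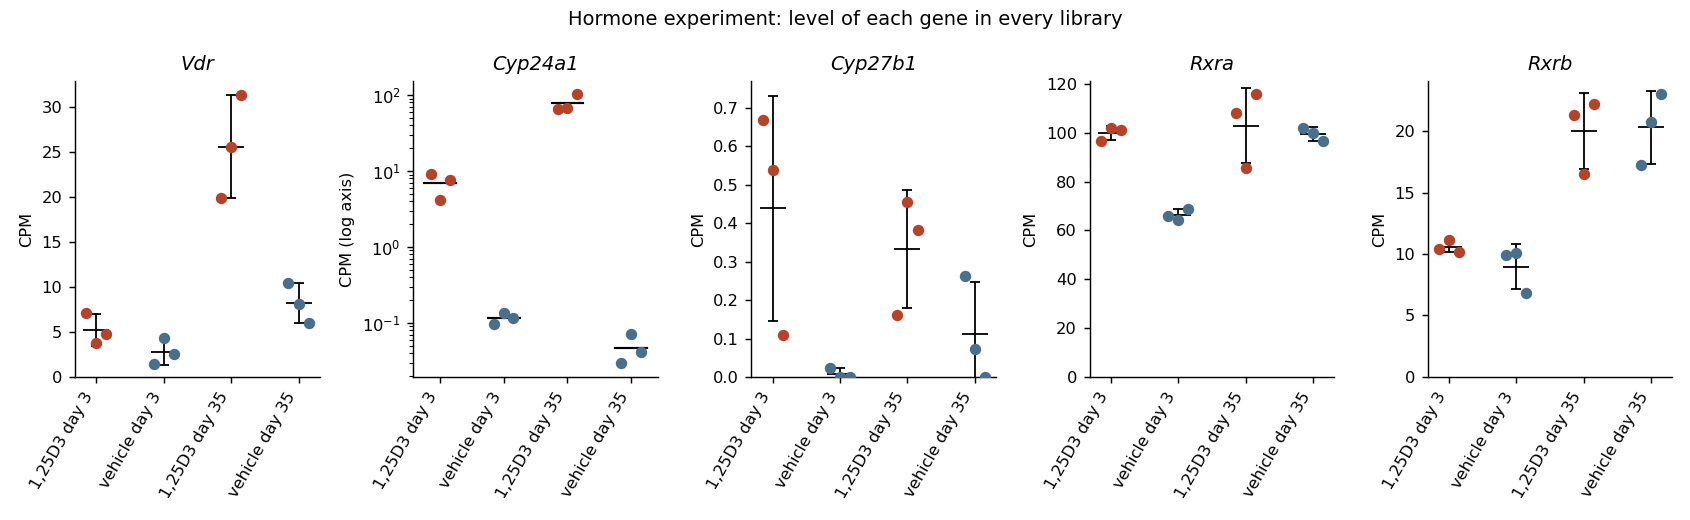
Level of each gene in CPM (vertical axes, logarithmic for Cyp24a1) in the 4 groups of the hormone experiment, with 1 point per library, the mean of 3 as a line and the SD as bars (no SD for Cyp24a1). Vdr separates by hormone at day 35, Cyp24a1 at both days, and Rxrb by day.

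Rxra, the main retinoid X receptor in these libraries, was higher with 1,25D3 at day 3 and not at day 35. It measured 96.8, 102 and 101 CPM in 1,25D3 cells of day 3, against 65.9, 64.3 and 69.0 CPM in vehicle cells of day 3. At day 35 it measured 108, 85.8 and 116 CPM in 1,25D3 cells, against 102, 99.9 and 96.6 CPM in vehicle cells. The vehicle cells of day 3 stood apart below all other libraries. The hormone response was 0.59 ± 0.13 on the log2 scale at day 3 (SE, edgeR, adjusted p = 0.00816) and 0.05 ± 0.13 at day 35 (adjusted p = 0.914). In vehicle cells Rxra rose by 0.58 ± 0.13 between day 3 and day 35 (adjusted p = 0.00341), and in 1,25D3 cells the change was 0.04 ± 0.13 (adjusted p = 0.826).

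The difference between the 2 responses of Rxra was -0.54 ± 0.19 (adjusted p = 0.0983). It passed with DESeq2 size factors (-0.58, adjusted p = 0.0418), with DESeq2 (-0.58, adjusted p = 0.00111) and after background subtraction (-0.77, adjusted p = 0.00539). TMM factors were 1.18 to 1.29 in 1,25D3 libraries of day 3 and 0.909 to 0.959 in vehicle libraries of day 3, so library totals alone gave a larger response at day 3 (0.98, adjusted p = 6.68e-05) and turned the change over time in 1,25D3 cells to -0.34 (adjusted p = 0.0349).

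Rxrb, the other partner, differed by day and not by hormone. It measured 21.3, 16.5 and 22.2 CPM in 1,25D3 cells of day 35, against 10.4, 11.1 and 10.2 CPM in those of day 3. In vehicle cells it measured 17.2, 20.7 and 23.0 CPM at day 35, against 9.93, 10.1 and 6.86 CPM at day 3. The days do not overlap under either treatment. The rise was 0.92 ± 0.20 in 1,25D3 cells (SE, edgeR, adjusted p = 0.0026) and 1.18 ± 0.20 in vehicle cells (adjusted p = 0.000321). The hormone responses were 0.24 ± 0.20 at day 3 (adjusted p = 0.387; with library totals 0.63, adjusted p = 0.0276) and -0.02 ± 0.20 at day 35 (adjusted p = 0.982). The next gene downstream on the same strand, Col11a2 (a collagen gene), stood at 212 to 255 CPM in 1,25D3 cells of day 35, against 1.07 to 1.66 CPM in those of day 3, and at 238 to 389 CPM in vehicle cells of day 35, against 0.0226 to 1.54 CPM in those of day 3. On the other side Slc39a7, a zinc transporter gene on the opposite strand, also rose between day 3 and day 35 in vehicle cells (1.29 ± 0.27, edgeR, adjusted p = 0.00175). Whether any Rxrb reads come from these neighbours was not tested.

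Per kilobase of transcript, Rxra exceeded Rxrb in 12 of 12 hormone libraries, by 2.25 to 5.39 times, the reverse of the order in the untreated libraries. In 1,25D3 cells of day 35 the levels were 22.0 ± 5.72 CPM per kilobase for Cyp24a1, 21.0 ± 3.17 for Rxra, 7.61 ± 1.17 for Rxrb, 5.86 ± 1.32 for Vdr and 0.14 ± 0.0642 for Cyp27b1 (SD, n = 3 each), and the first pair and the pair of Rxrb and Vdr lay within their spreads. In vehicle cells of day 35 they were 20.3 ± 0.548 for Rxra, 7.73 ± 1.12 for Rxrb and 1.88 ± 0.509 for Vdr, with Cyp27b1 at 0.047 ± 0.0571 and Cyp24a1 at 0.0133 ± 0.00624. Rxra exceeded Vdr by 2.98 to 4.85 times in 1,25D3 cells of day 35 and 8.66 to 14.2 times in vehicle cells of day 35. At day 3 that ratio was 12.1 to 24.4 in 1,25D3 cells and 13.4 to 41.5 in vehicle cells.

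Cyp24a1, which breaks the hormone down, was raised at both days, and by more at day 35. At day 3 it measured 9.20, 4.19 and 7.58 CPM in 1,25D3 cells, against 0.0976, 0.135 and 0.115 CPM in vehicle cells. At day 35 it measured 65.2, 68.1 and 102 CPM in 1,25D3 cells, against 0.0292, 0.0722 and 0.0409 CPM in vehicle cells. No 1,25D3 library overlaps a vehicle library. The log2 change at day 3 was 5.87 ± 0.37 (SE, edgeR, adjusted p = 1.33e-07), from 685 reads in 1,25D3 libraries and 15 in vehicle libraries, a ratio of 58.8 after scaling with a 95% interval of 35.4 to 106 that covers counting error only. At day 35 the vehicle libraries held 1, 2 and 1 reads, which gave a ratio of 1710 (95% interval 669 to 6290). The 1,25D3 cells alone showed a rise of 3.49 ± 0.27 between day 3 and day 35 (adjusted p = 2.04e-07), a comparison that does not rest on the vehicle counts. The difference between the responses was 4.76 ± 0.76 (adjusted p = 0.00118). With background subtracted, every vehicle library fell to 0 reads and the difference did not pass (3.68, adjusted p = 1.0). The 148 to 276 reads of the 1,25D3 libraries at day 3 stood beside 51.6 to 71.5 expected background reads, and the 4 to 6 reads of the vehicle libraries stood beside 6.2 to 8.6.

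Pfdn4, a chaperone subunit gene annotated in overlap with Cyp24a1 on the opposite strand, had 10 counts in the 3 1,25D3 libraries together at each day and 0 in the vehicle libraries. In untreated cells Pfdn4 averaged 7.76 to 14.3 RPKM by day while Cyp24a1 was listed at 0. Whether the counting used strand is not given in the sources used here, and whether the 2 genes share reads was not tested.

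Cyp27b1, which makes the hormone, had at most 19 reads in any library, under the expected background in all 6 libraries of day 3 and over it in 3 of 6 at day 35. At day 3 it had 19, 19 and 4 reads in 1,25D3 libraries, where 37.1, 34.5 and 47.8 background reads were expected, and 1, 0 and 0 reads in vehicle libraries, where 5.7, 4.2 and 4.3 were expected. At day 35 it had 8, 15 and 18 reads in 1,25D3 libraries, with 4.0, 31.6 and 5.7 expected, and 9, 2 and 0 reads in vehicle libraries, with 2.2, 9.9 and 4.2 expected. Replicates 1 and 3 of 1,25D3 and replicate 1 of vehicle lie over their background at day 35. The ratio at day 3 was 54.1 (95% interval 9.19 to 2190, counting error only), and the change did not pass (5.29 ± 1.86, SE, edgeR, adjusted p = 0.0553), although it did with DESeq2 (5.79, adjusted p = 0.0061) and with library totals (5.68, adjusted p = 0.0427). The 1,25D3 libraries of day 3 held fewer reads than their background gave, and whether these day 3 reads reflect expression was not tested. The expected reads are an average over a gene family from which single genes depart. Bcas1, a neighbour of Cyp24a1, had 0 counts in the 1,25D3 libraries of day 3. At day 35 the change was 1.52 ± 1.55 (adjusted p = 0.761).

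**Figure D3:**
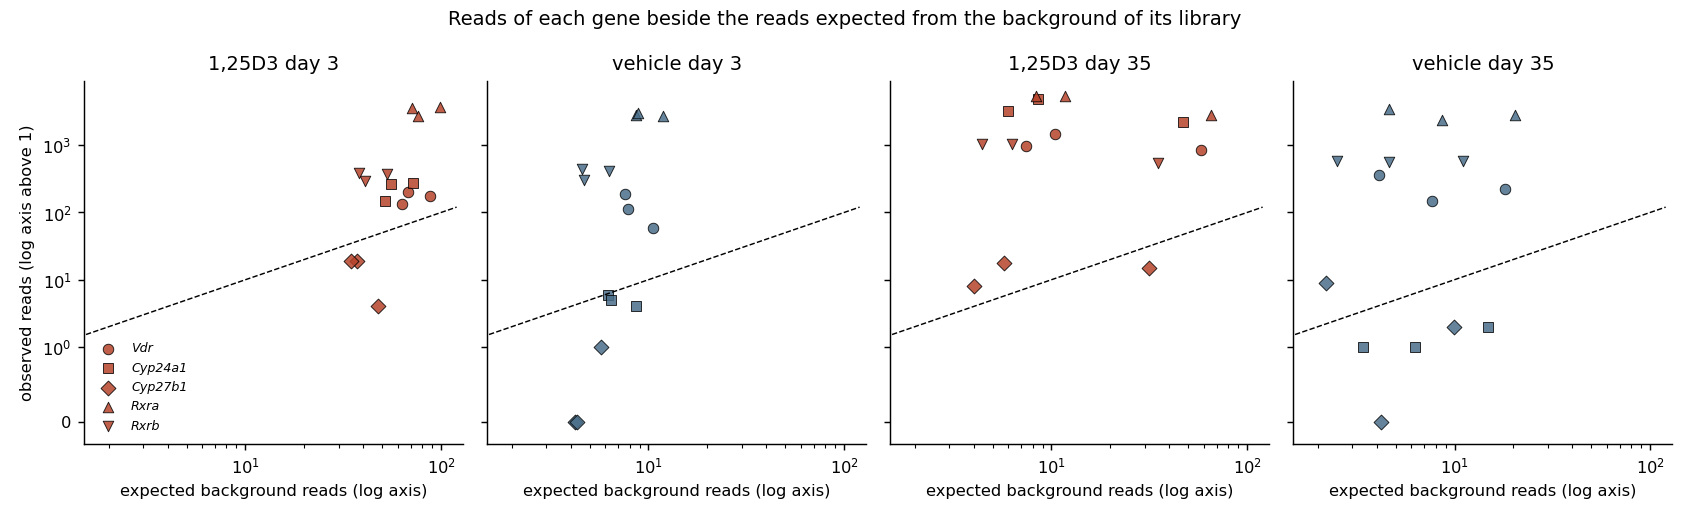
Observed reads of each gene (vertical axis, logarithmic above 1) against the reads its library's background would give over its transcript (horizontal axis, logarithmic), with 3 libraries per gene in each of the 4 groups and a dashed line where they are equal. Cyp27b1 lies under the line in all 3 1,25D3 libraries of day 3, and Cyp24a1 lies under it in vehicle libraries.

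Of the 5 genes, 2 rose with 1,25D3 at day 3 (Cyp24a1 and Rxra), where 20.5% of the 20055 tested genes passed in either direction, and 2 rose at day 35 (Cyp24a1 and Vdr), where 4.56% passed. Only Cyp24a1 passed in the test of the difference between the responses, where 7.08% of all genes did. Between day 35 and day 3, 3 rose in 1,25D3 cells (Vdr, Cyp24a1 and Rxrb) and 3 in vehicle cells (Vdr, Rxra and Rxrb). Of all tested genes, 27.6% and 29.9% passed in either direction there, and 2947 and 3101 of 20055 rose. None of the 5 fell. The comparisons share control groups, so their calls are not independent.

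**Figure D4:**
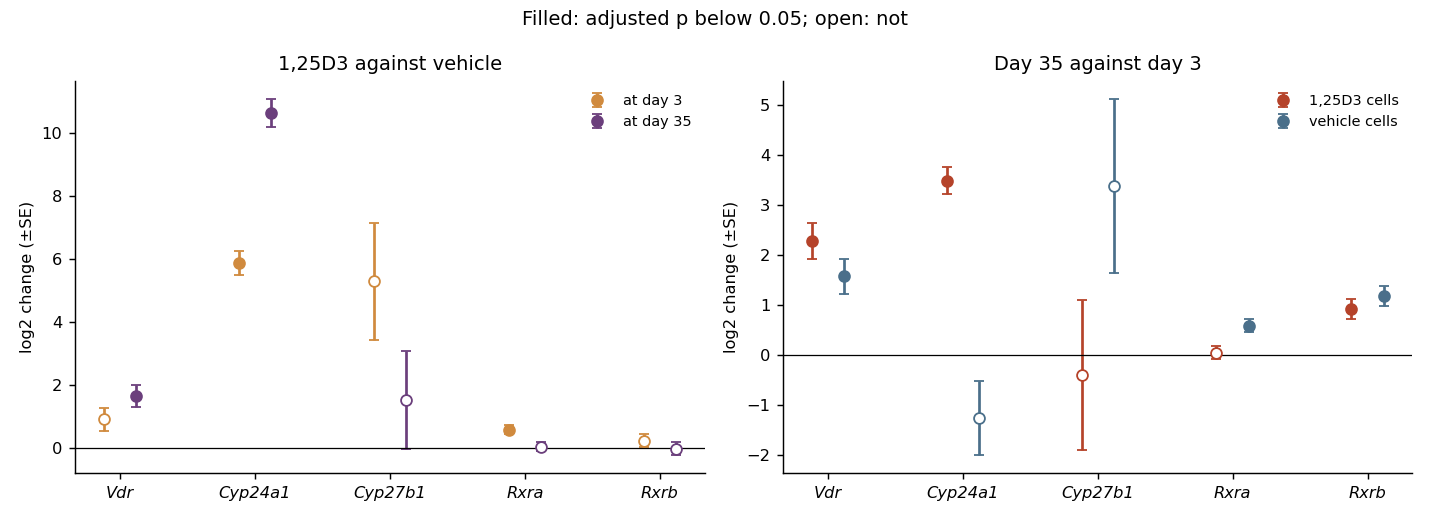
Log2 change with its SE for each gene (vertical axes), on the left for 1,25D3 against vehicle at days 3 and 35 and on the right for day 35 against day 3 in 1,25D3 and vehicle cells. Filled points passed an adjusted p of 0.05, such as Cyp24a1 at 5.87 and 10.62 with hormone.

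Of the known targets of the receptor, 45.0% passed at day 35, where 4.56% of all tested genes did. At day 3, 50.0% of them passed, where 20.5% of all tested genes did. This list and those below were chosen with earlier results of these data known, so their shares are a description and no test. In a list of 20 targets, 8 rose and 1 fell with 1,25D3 at day 35, with a list median of 1.25 against 0.02 over all tested genes. At day 3, 6 rose and 4 fell, with a median of 0.21 against 0.26. The difference between the responses passed for 7 of 20 (35.0%, against 7.08% of all genes), all higher at day 35, and did not pass for 13. Spp1, the matrix protein osteopontin, measured 2870, 3260 and 4030 CPM in 1,25D3 cells of day 35, against 324, 268 and 268 CPM in vehicle cells, and 116, 93.2 and 79.6 CPM in 1,25D3 cells of day 3, against 28.2, 45.3 and 30.2 CPM in vehicle cells. Its log2 changes were 3.56 ± 0.22 at day 35 (SE, edgeR, adjusted p = 2.58e-07) and 1.48 ± 0.21 at day 3 (adjusted p = 0.00024). Tnfsf11, the osteoclast factor RANKL, measured 105, 81.7 and 87.5 CPM in 1,25D3 cells of day 35, against 12.0, 6.75 and 5.76 CPM in vehicle cells (3.48 ± 0.26, adjusted p = 8.58e-07). At day 3 its values were 8.49, 9.97 and 8.89 CPM in 1,25D3 cells, against 10.6, 8.01 and 11.2 CPM in vehicle cells, and the groups overlap. Its decoy receptor Tnfrsf11b (osteoprotegerin) fell at both days, to 24.6, 16.6 and 20.8 CPM in 1,25D3 cells of day 35, against 92.1, 55.1 and 54.1 CPM in vehicle cells.

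Thbd (thrombomodulin, a clotting regulator) changed by 1.94 ± 0.14 at day 35 (edgeR, adjusted p = 6.86e-07) and by 0.15 ± 0.13 at day 3 (adjusted p = 0.425), where background subtraction gave a called 0.44 (adjusted p = 0.0368). Enpp3 and Enpp1, ectoenzymes that cleave nucleotides, rose at both days. Enpp1, which makes the mineralization inhibitor pyrophosphate, measured 49.0, 42.8 and 50.2 CPM in 1,25D3 cells of day 35, against 12.0, 4.98 and 5.52 CPM in vehicle cells. Enpp3 changed by 5.32 ± 0.48 at day 35 (adjusted p = 7.48e-06) and 3.09 ± 0.41 at day 3 (adjusted p = 0.000142). After background subtraction 17 of the 20 kept enough reads for a test. Of these, 6 rose and 3 fell at day 3, and 8 rose and 1 fell at day 35. Of all 15122 genes tested in that fit, 2389 passed at day 3 and 923 at day 35. At day 3 Thbd and Mmp13 (a collagenase) then joined those that rose, while Calb1 and Trpv5 (calcium transport genes) kept too few reads to be tested. Trpv5 had 29, 29 and 47 reads in 1,25D3 libraries of day 3, where 50.5, 47.0 and 65.2 background reads were expected, and 0 in each vehicle library. S100g, a calcium carrier, had 29, 34 and 81 reads there, where 7.5, 7.0 and 9.6 were expected, and 0 in each vehicle library.

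**Figure D5:**
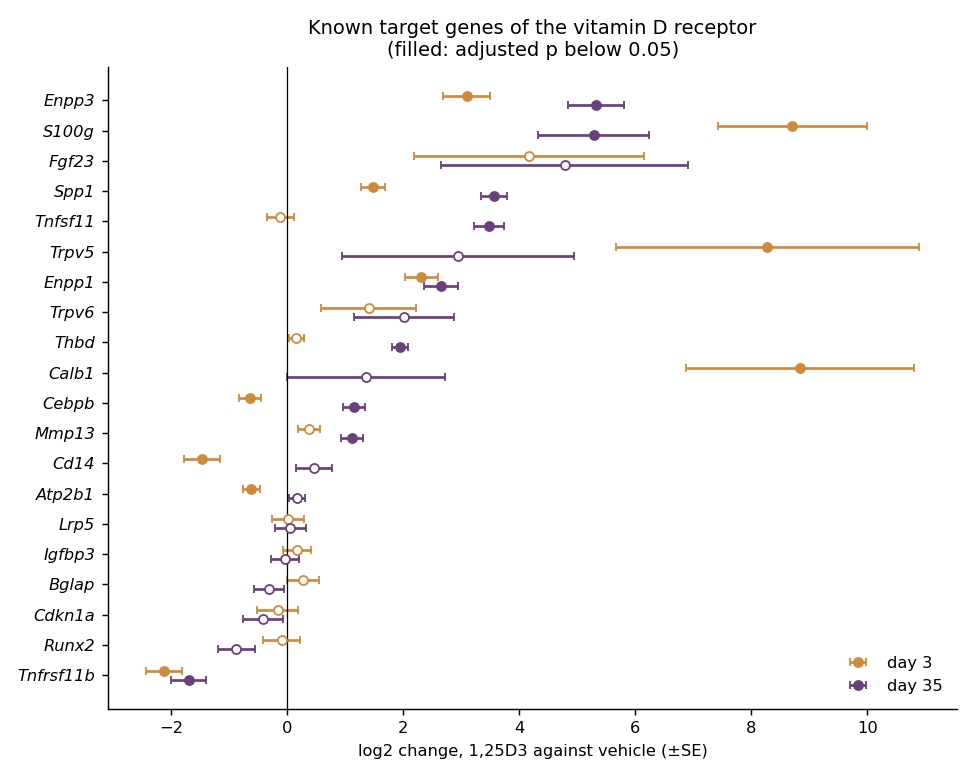
Log2 change with 1,25D3 against vehicle, with its SE (horizontal axis), for 20 known targets of the receptor at day 3 and day 35. Filled points passed an adjusted p of 0.05, and Tnfsf11 and Thbd are filled at day 35 only, although Thbd also passed at day 3 after background subtraction (0.44).

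The other lists of the pathway are read beside the 20.5% of all genes that passed at day 3 and the 4.56% that passed at day 35. Of 9 tested genes of vitamin D metabolism and transport, 2 rose at day 3, a share of 22.2% that is near that of all genes (Cyp3a11, a liver oxidase, and Gc, the carrier protein of blood) and 0 changed at day 35 (edgeR; 2 with an unadjusted p under 0.05; 0 by DESeq2). Gc had 12, 16 and 23 reads in 1,25D3 libraries of day 3, where 28.1, 26.1 and 36.2 background reads were expected, and 0 in each vehicle library. Cyp3a11 had 16, 14 and 106 reads there, where 36.5, 34 and 47.1 were expected, and 0 in each vehicle library. After background subtraction both kept too few reads to be tested, and Lrp2 (the uptake receptor megalin) fell (-9.95 ± 1.7, SE, edgeR, adjusted p = 0.00273). Before subtraction 0 of the 9 fell, and whether it took off too many Lrp2 reads was not tested. Of 14 receptor coregulators, 0 changed at day 3 (edgeR; 1 with an unadjusted p under 0.05; 1 by DESeq2, Baz1b; after background subtraction Baz1b rose and Hr fell) and 0 at day 35 (edgeR; 0 with an unadjusted p under 0.05; 0 by DESeq2). Whether the subtraction took off too many Hr reads was not tested either. Among 12 tested partners of the retinoid X receptors and the third receptor of that family, 1 fell at day 3 (8.33%). That gene, the orphan receptor Nr4a1, measured 1.48, 2.29 and 1.73 CPM in 1,25D3 cells, against 73.8, 181 and 123 CPM in vehicle cells. At day 35 it measured 4.24, 0.667 and 2.99 CPM in 1,25D3 cells, against 5.94, 2.60 and 2.17 CPM in vehicle cells, and 0 of the 12 passed (edgeR; 1 with an unadjusted p under 0.05; 0 by DESeq2).

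The receptors for parathyroid hormone and FGF23, which set the hydroxylase genes in kidney, gave 4 tested genes, of which 2 passed at day 3 and 1 at day 35. Pth1r, the parathyroid hormone receptor, measured 6.28, 6.64 and 5.30 CPM in 1,25D3 cells of day 35, against 13.5, 23.2 and 26.7 CPM in vehicle cells, a fall of 1.80 on the log2 scale (-1.80 ± 0.39, edgeR, adjusted p = 0.0116) that missed the threshold after background subtraction (-1.82, adjusted p = 0.25). At day 3 Pth1r and Fgfr3 rose, but their 20, 60 and 48 reads and 5, 31 and 14 reads in 1,25D3 libraries stood beside 35.9, 33.4 and 46.4 and 66.1, 61.5 and 85.3 expected background reads, and after subtraction Pth1r did not pass (1.46, adjusted p = 0.405) while Fgfr3 had no reads left in these libraries.

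Without hormone, 9 of 11 tested coregulators fell and 7 of 7 tested partners fell in the comparison of untreated day 35 with day 3, where 57.1% of all genes passed and the median gene stood at -0.69. The list medians were -0.78 and -0.99. Baz1b (a chromatin remodelling subunit) measured 1.74, 0.900 and 0.693 RPKM at day 35, against 9.00, 6.76 and 7.02 RPKM at day 3, and Pparg (the fat cell regulator) measured 0.199, 0.110 and 0.225 RPKM at day 35, against 4.89, 5.14 and 4.35 RPKM at day 3. With median centring 2 of 11 coregulators fell (Baz1b and Ep300) and 2 rose, and 3 of 7 partners fell (Nr4a1, Nr4a2 and Pparg). Of all 9933 genes, 2139 fell and 2934 rose with that centring. Without centring, 3 targets rose and 6 fell of 12 tested. Bglap (osteocalcin, whose near-identical copies may share reads) measured 186, 162 and 90.9 RPKM at day 35, against 2.61, 4.42 and 3.15 RPKM at day 3. Pth1r rose to 12.6, 10.3 and 6.76 RPKM at day 35, against 0.978, 0.797 and 0.953 RPKM at day 3. Fgfr1, the other tested gene of its list, fell to 1.51, 0.859 and 1.12 RPKM at day 35, against 8.10, 9.10 and 10.0 RPKM at day 3 (-2.54 ± 0.42, SE, limma, adjusted p = 3.68e-05).

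The genes most like each of the 5 across the 12 hormone libraries were taken as the 3 with the highest Pearson r of log2 CPM among 20054 genes. For Vdr they were Igfbp5, 2010011I20Rik and Tep1 (r of 0.977, 0.974 and 0.973), and for Cyp24a1 5031410I06Rik, Angpt2 and Epha4 (0.987, 0.982 and 0.972). For Rxra they were Gm7187, 6330416L07Rik and Rbm5 (0.979, 0.958 and 0.954), and for Rxrb Pdrg1, 2010107H07Rik and Thtpa (0.983, 0.974 and 0.974). Cyp27b1, with its few reads, had lower values, led by Gm9199 at 0.893. These points share libraries, groups and depth, and the values describe likeness only.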

How the data were processed

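The 30 libraries were analysed from the values the authors deposited, 1 file each, after alignment with TopHat to mm9 per the submitters' processing notes. The counting step and annotation are not given in the sources used here. The 18 untreated files hold RPKM made by the authors. The 12 hormone files hold raw counts as deposited, although their names say RPKM. The 5 genes, the 5 lists and the tests were chosen with earlier results of these data known.

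RPKM were tested as log2(RPKM + 0.5) with limma 3.58.1 in 1 fit of 6 groups (trend, 12 residual degrees of freedom, at least 1 RPKM in 3 libraries, 9933 genes). A fold change on that scale understates the change of low genes. Counts were tested with edgeR 4.0.16 (filterByExpr, TMM, quasi-likelihood, 20055 genes, 8 residual degrees of freedom), and DESeq2 1.42.0 was an alternative. P-values were Benjamini-Hochberg adjusted over all genes tested, with 0.05 as threshold. The edgeR SE is the log2 change divided by the root of its F. Of a symbol with several rows, the row with the highest mean was used for RPKM and the sum for counts. Expected background reads are the olfactory receptor reads per kilobase of a library times the longest GENCODE transcript of the gene, which 91.0% of genes had. The fits were tested on simulated data. The named list genes are those with the smallest adjusted p among the called ones, up to 4 a list in each hormone response and in untreated day 35 against day 3. The genes most like Rxrb over the untreated libraries are not reported here. S100g, Calb1, Trpv5, Lrp2 and Hr fall outside that rule and were chosen after their values were seen.

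Replicate numbers were not used as pairs in the main fits. Every same-number correlation exceeded 0.1 in 0 of 6 pairs of hormone groups, although 1,25D3 and vehicle at day 35 gave 0.369, 0.526 and -0.007. Every such correlation exceeded 0.1 in 11 of 15 pairs of untreated days, where replicate 1 shares a sequencing run, but not for day 35 against day 3. These values cannot show that the samples are unpaired.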

Additional observations from a re-analysis of the deposited data

Results flagged for a closer look

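The response of Cyp24a1 to 1,25D3 differed between the days by the test of the difference itself, 4.76 ± 0.76 larger at day 35 than at day 3 on the log2 scale (edgeR, adjusted p = 0.00118), and it was larger with each library left out in turn (4.48 to 5.31). The vehicle counts under it are 1 to 2 reads a library at day 35 and 4 to 6 at day 3, all under the expected background. The level in 1,25D3 cells alone, 78.4 ± 20.4 CPM at day 35 and 6.99 ± 2.55 CPM at day 3 (SD, n = 3 each), differed as well.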

How the results depend on the processing

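Of 509 alternative values for 34 results, 492 kept their direction and side of the threshold, or stayed uncalled. Median centring and quantile normalization gave Rxrb 0.83 and 0.84 for untreated day 35 against day 3, and the libraries without the first run, an alternative chosen after seeing the data, gave 0.61 for day 21 against day 3. Library totals without TMM, also chosen after seeing the data, gave called day 3 responses of 5.68 for Cyp27b1, 0.63 for Rxrb and 1.31 for Vdr, a called difference of responses of -0.91 for Rxra, and -0.34 for Rxra in 1,25D3 cells over time, the reverse of the TMM sign. DESeq2 gave called day 3 responses of 5.79 for Cyp27b1 and 0.99 for Vdr, and a difference of responses of -0.58 for Rxra, the same as with its size factors in edgeR. Background subtraction gave -0.77 for that of Rxra and 3.68, uncalled, for that of Cyp24a1, and left too few reads of Cyp27b1 for a test. Each library left out in turn gave Vdr 0.51 to 1.37 at day 3 and 1.49 to 1.85 at day 35. The causes were not tested.

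The replicate block gave the same calls as the fit without it for all 34 results, for instance 1.64 for Vdr at day 35 and 0.59 for Rxra at day 3. Depth limits Vdr, Cyp27b1 and Rxra in untreated cells, with at most 13, 9 and 22 reads a library, if the smallest step of each gene is 1 read.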
